A study of Mus musculus with 4 samples.

Results

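The Sox genes analysed here are 10 members of a family of transcription factors that share a DNA-binding HMG domain: the SoxE genes Sox8, Sox9 and Sox10, the SoxD genes Sox5, Sox6 and Sox13, the SoxC genes Sox4 and Sox11, and the SoxB1 genes Sox2 and Sox3. They were chosen by gene symbol as the Sox genes of the oligodendroglial lineage, and each symbol matched 1 of the 53465 genes listed in the count files. RNA-Seq was performed on primary (1°) mouse oligodendroglial cells (OGCs), which were obtained from the forebrain at postnatal day 2 to 4 by shake-off with microglial depletion and kept for 3 days in differentiation medium. The study asked which transcripts depend on Zfp276, a zinc finger protein of differentiating oligodendrocytes (OLs). Ctrl cells were Zfp276 flox/flox, and Zfp276cko cells were Sox10::Cre tg with Zfp276 flox/flox, so that both genotypes carry the floxed allele and Zfp276cko cells alone carry the Cre transgene. Exons 2 to 5 of Zfp276 are floxed. Sox10::Cre is a BAC transgene that drives Cre in OL progenitors (OPCs) and their progeny. Cells in which Cre is not active keep the gene, and the paper describes the deletion as incomplete. The mice had a mixed C3H x C57Bl/6J background. A Rosa26 stopflox tdTomato allele was crossed into mice for culture, and the labels do not say in which genotypes it was present. Each genotype was represented by 2 separate preparations, and each preparation was pooled from 3 mice.

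Sox proteins bind the minor groove of short A/T-rich sites and bend the DNA. Members of one subgroup bind alike and often replace each other, whereas members of different subgroups can compete. In OGCs, Sox10 is present from OPCs to OLs and activates myelin genes, Sox8 overlaps with it in function, and Sox9 acts mainly in the specification of the lineage. Sox5 and Sox6 lack a transactivation domain of their own and are known to counteract Sox10 in OPCs. Sox4 and Sox11 are known from precursor cells, where Sox4 delays OL differentiation, and Sox2 and Sox3 are known for stemness and for the proliferation and differentiation of oligodendroglial cells.

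The libraries held 21311469 and 21068322 counted reads in ctrl against 25265366 and 26599809 in Zfp276cko. Counts were scaled to the mean effective library size and are given as normalized counts. The 2 ctrl libraries differed more from each other than the 2 Zfp276cko libraries. Of 14324 genes with 20 or more normalized counts on average, 12.6% differed 2-fold or more between the ctrl libraries and 0.307% between the Zfp276cko libraries, and the biological coefficient of variation (relative spread beyond counting noise) amounted to 0.357 for ctrl and 0.0480 for Zfp276cko. For the 10 Sox genes, the median fold between replicates was 1.17 in ctrl and 1.07 in Zfp276cko cells, against 1.22 and 1.06 for all these genes. The deleted gene itself, Zfp276, had normalized counts of 1648 and 2230 in ctrl and of 490 and 503 in Zfp276cko cells. Its mean in Zfp276cko was 25.6% of that in ctrl (log2 fold change −1.97, standard error 0.18), and its reads include those of exons outside the floxed part.

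Among the Sox genes, Sox8 and Sox13 had lower and Sox5 and Sox4 higher values in both Zfp276cko libraries than in either ctrl library, with means of 63.6%, 62.7%, 167% and 152% of ctrl. Sox10, Sox6, Sox2, Sox9, Sox11 and Sox3 overlapped between the genotypes. By the quasi-likelihood test of edgeR, with p-values adjusted over 15766 tested genes after Benjamini and Hochberg, no Sox gene was called, and with 0 genes (0%) called in either direction no other gene was called either. Thresholds for a call were 0.05 for the adjusted p, 0.6 for the log2 fold change in either direction and 20 for the mean normalized count. The smallest adjusted p of any gene was 0.0726, and the deleted gene Zfp276 was itself not called (edgeR adjusted p = 0.0962). A gene without a call by this test may thus still differ between the genotypes. With the unadjusted p in its place, 2 Sox genes were lower (Sox8, Sox13) and 2 higher (Sox5, Sox4), against 3.02% and 5.11% of all tested genes. DESeq2 called 1 Sox gene lower (Sox8) and 1 higher (Sox5), against 2.27% and 3.02% of 14879 genes with an adjusted p. The genotypes did not overlap for 2 of the 10 Sox genes in the lower and 2 in the higher direction, and for 23.7% and 26.8% of all tested genes, so that the share of Sox genes that separate the genotypes is near the background. The median log2 fold change was −0.04 over the 10 Sox genes, which all passed the filter on low counts, and −0.0013 over all tested genes. In bulk RNA, fewer cells of a type and less RNA per cell cannot be told apart.

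**Figure D1:**
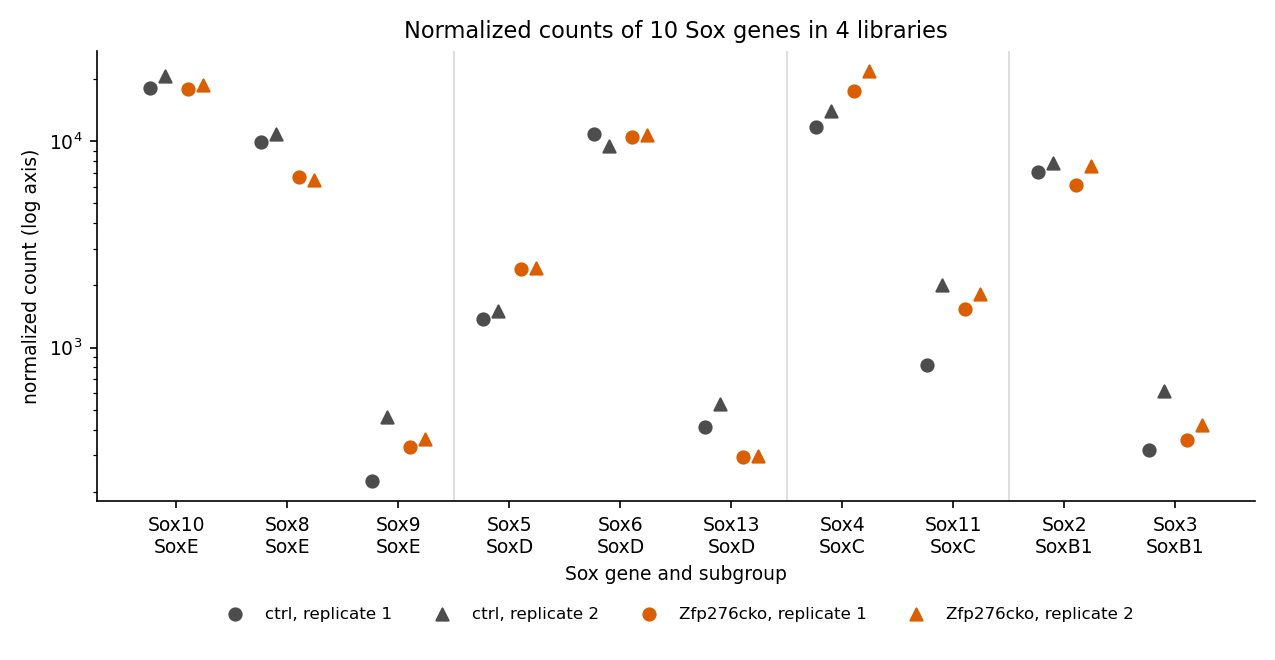
Normalized counts of the 10 Sox genes (log axis), with 1 point for each library, ctrl in grey and Zfp276cko in orange, circles for replicate 1 and triangles for replicate 2. Sox8 and Sox13 lie lower and Sox5 and Sox4 higher in both Zfp276cko libraries, while Sox9, Sox11 and Sox3 lie 1.93- to 2.43-fold apart between the ctrl libraries.

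Promoter sequences of the 4 genes that separated the genotypes are shown because a DNA-binding motif is known for Zfp276. They are RefSeq windows of build GRCm38.p6 with 250 bases before and 50 bases after a gene's start, printed 5′ to 3′ on the strand of the gene, and 7 of the 10 Sox genes had 12 such windows. Capitals mark the Sox motif (ACAAAG or ACAATG) and the fixed letters of the Zfp276 consensus (AAAGGG, here called the core), each searched on both strands. The paper uses the word core for a longer sequence, AAAAGGGCT. A Sox motif and a core can share the letters AAAG.
Sox8 (chr17:25570637-25570936, minus strand): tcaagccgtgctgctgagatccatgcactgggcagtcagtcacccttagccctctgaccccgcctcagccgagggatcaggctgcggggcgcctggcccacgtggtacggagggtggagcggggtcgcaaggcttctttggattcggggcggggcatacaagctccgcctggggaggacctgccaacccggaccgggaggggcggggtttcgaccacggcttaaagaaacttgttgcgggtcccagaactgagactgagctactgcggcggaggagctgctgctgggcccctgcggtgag
Sox13 (chr1:133424163-133424462, minus strand): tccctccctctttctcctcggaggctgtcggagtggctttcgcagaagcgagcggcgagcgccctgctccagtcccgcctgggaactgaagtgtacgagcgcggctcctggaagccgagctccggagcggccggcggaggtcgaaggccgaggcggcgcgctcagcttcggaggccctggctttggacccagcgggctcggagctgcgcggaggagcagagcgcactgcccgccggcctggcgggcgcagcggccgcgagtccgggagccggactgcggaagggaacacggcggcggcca
Sox5 (chr6:143947057-143947356, minus strand): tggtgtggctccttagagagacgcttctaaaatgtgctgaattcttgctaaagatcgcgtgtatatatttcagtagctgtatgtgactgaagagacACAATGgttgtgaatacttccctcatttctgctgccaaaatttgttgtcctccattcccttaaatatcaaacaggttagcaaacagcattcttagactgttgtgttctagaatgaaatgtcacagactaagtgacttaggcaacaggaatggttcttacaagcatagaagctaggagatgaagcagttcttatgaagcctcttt
Sox4 (chr13:28953650-28953949, minus strand): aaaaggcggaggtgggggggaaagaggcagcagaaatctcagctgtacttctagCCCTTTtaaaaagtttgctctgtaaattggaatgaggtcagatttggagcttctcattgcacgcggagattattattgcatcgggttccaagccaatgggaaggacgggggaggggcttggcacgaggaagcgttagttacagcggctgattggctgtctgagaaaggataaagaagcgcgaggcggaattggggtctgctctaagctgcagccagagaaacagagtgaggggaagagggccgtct

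The windows of Sox8 and Sox13, both GC-rich with 66.3% and 73.3% G or C against a median of 52.7% over all 32851 windows, held neither motif. The Sox5 window, with 39.7% G or C, held 1 Sox motif at base 97 and belongs to a start inside the annotated gene. The Sox4 window held 1 Zfp276 core on the opposite strand at base 55, within a match to the full 9-base motif. This full motif was searched as AAAAGGGCG, AAAAGGGCT, AAAAGGGTG, AAAAGGGTT, GAAAGGGCG, GAAAGGGCT, GAAAGGGTG and GAAAGGGTT on both strands, each of which contains the core. It occurred in 2.58% of all windows and in 2 of the 12 Sox windows, those of Sox4 and of 1 of the 6 starts of Sox6 (chr7:115995037-115995336). The core alone occurred in 21.5% of all windows and in 5 of the 12 Sox windows, and the Sox motif in 28.6% and in 7 of 12. These counts rest largely on Sox6, whose starts made up 3 of the 5 and 5 of the 7 windows, and by gene each motif was found in 3 of 7 (the core in Sox2, Sox4 and Sox6, the Sox motif in Sox2, Sox5 and Sox6). Of the other windows, that of Sox2 held 1 Sox motif and 1 core, and that of Sox11 held neither. A match is a run of letters and not a binding site, and the absence of one applies to the printed window only.

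Of the SoxE genes, Sox10 (chr15:79154908-79165240, minus strand), the activator of myelin genes, had normalized counts of 18135 and 20744 in ctrl and of 17805 and 18611 in Zfp276cko cells. The genotypes overlapped, and the log2 fold change was −0.09 (standard error 0.13, 95% interval −0.45 to 0.26, edgeR adjusted p = 0.771). This log2 fold change ranged from −0.19 to −0.0079 when 1 library was left out. Reads of the Sox10 gene and of any Sox10 sequence that the Sox10::Cre transgene carries cannot be told apart in these counts. Sox8 (chr17:25565892-25570686, minus strand), which shares targets with Sox10, had normalized counts of 9936 and 10792 in ctrl and of 6693 and 6482 in Zfp276cko cells. The Zfp276cko libraries both lay below the ctrl libraries, and the replicates of each genotype were at most 1.09-fold apart. Its mean in Zfp276cko was 63.6% of ctrl (log2 fold change −0.65, standard error 0.11, 95% interval −0.94 to −0.36, unadjusted p = 0.00294, edgeR adjusted p = 0.1385, DESeq2 adjusted p = 0.000149). Without any 1 library the log2 fold change stayed between −0.71 and −0.61. Over 329 bases, or 10.6% of its exons, Sox8 overlaps 2810468N07Rik on the opposite strand, whose counts were 3164 and 2470 in ctrl against 1934 and 1983 in Zfp276cko. The strand setting of the counting is not given in the sources used here, so reads of these bases may be counted for either gene or neither. Sox9 (chr11:112782224-112787760, plus strand), an early gene of glial specification that is also expressed in astrocytes, had normalized counts of 226 and 461 in ctrl and of 329 and 361 in Zfp276cko cells. Its ctrl libraries were 2.05-fold apart and enclosed both Zfp276cko libraries (log2 fold change 0.0063, standard error 0.38).

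The SoxD genes differed from each other in direction. Sox5 (chr6:143828425-144781977, minus strand), known to counteract Sox10, had normalized counts of 1382 and 1499 in ctrl and of 2389 and 2425 in Zfp276cko cells. The Zfp276cko libraries both lay above the ctrl libraries, and the replicates were at most 1.08-fold apart. Its mean in Zfp276cko was 167% of ctrl (log2 fold change 0.74, standard error 0.09, 95% interval 0.49 to 0.99, unadjusted p = 0.000957, edgeR adjusted p = 0.117, DESeq2 adjusted p = 0.000194), and without any 1 library the log2 fold change stayed between 0.68 and 0.79. Sox6 (chr7:115470872-116038796, minus strand), its close relative with the same known role in OPCs, had normalized counts of 10889 and 9492 in ctrl and of 10429 and 10727 in Zfp276cko cells. The ctrl libraries enclosed both Zfp276cko libraries (log2 fold change 0.05, standard error 0.12, 95% interval −0.28 to 0.38, edgeR adjusted p = 0.866). Sox13 (chr1:133382303-133424377, minus strand), the third SoxD gene, had normalized counts of 410 and 530 in ctrl and of 293 and 296 in Zfp276cko cells. The Zfp276cko libraries both lay below the ctrl libraries, while the ctrl libraries themselves were 1.29-fold apart. Its mean in Zfp276cko was 62.7% of ctrl (log2 fold change −0.67, standard error 0.19, 95% interval −1.18 to −0.16, unadjusted p = 0.0208, edgeR adjusted p = 0.237, DESeq2 adjusted p = 0.0976), and without 1 library the log2 fold change ranged from −0.84 to −0.49.

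Of the SoxC genes, Sox4 (chr13:28948919-28953713, minus strand), a gene of precursor cells, had normalized counts of 11766 and 14022 in ctrl and of 17404 and 21812 in Zfp276cko cells. The Zfp276cko libraries both lay above the ctrl libraries, and Sox4 was the Sox gene with the widest gap between its Zfp276cko replicates (1.25-fold). Its mean in Zfp276cko was 152% of ctrl (log2 fold change 0.60, standard error 0.18, 95% interval 0.12 to 1.09, unadjusted p = 0.0249, edgeR adjusted p = 0.251, DESeq2 adjusted p = 0.0690), and without 1 library the log2 fold change ranged from 0.43 to 0.76. Gm26735 on the opposite strand overlaps 54.6% of the Sox4 exons, and its counts were 11 and 15 in ctrl against 29 and 44 in Zfp276cko. As for Sox8, reads of the shared bases may be counted for either gene or neither. The Sox4 counts, and the levels per exon length given below, may therefore leave out part of its reads. Sox11 (chr12:27334264-27342574, minus strand), known from immature neurons, had normalized counts of 826 and 2009 in ctrl and of 1528 and 1823 in Zfp276cko cells. Its ctrl libraries were 2.43-fold apart and enclosed both Zfp276cko libraries (log2 fold change 0.24, standard error 0.45, 95% interval −0.98 to 1.46).

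Of the SoxB1 genes, Sox2 (chr3:34650405-34652461, plus strand), known from neural stem cells and OPCs, had normalized counts of 7058 and 7839 in ctrl and of 6108 and 7566 in Zfp276cko cells. The genotypes overlapped (log2 fold change −0.12, standard error 0.15, 95% interval −0.53 to 0.29, edgeR adjusted p = 0.743). Sox2 lies within Sox2ot, a long noncoding RNA gene on the same strand with which it shares no exon sequence, and whose counts were 1180 and 3047 in ctrl against 2101 and 2256 in Zfp276cko. Sox3 (chrX:60891366-60893430, minus strand), its relative, had normalized counts of 318 and 616 in ctrl and of 357 and 419 in Zfp276cko cells. Its ctrl libraries were 1.93-fold apart and enclosed both Zfp276cko libraries (log2 fold change −0.27, standard error 0.36, 95% interval −1.24 to 0.71).

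**Figure D2:**
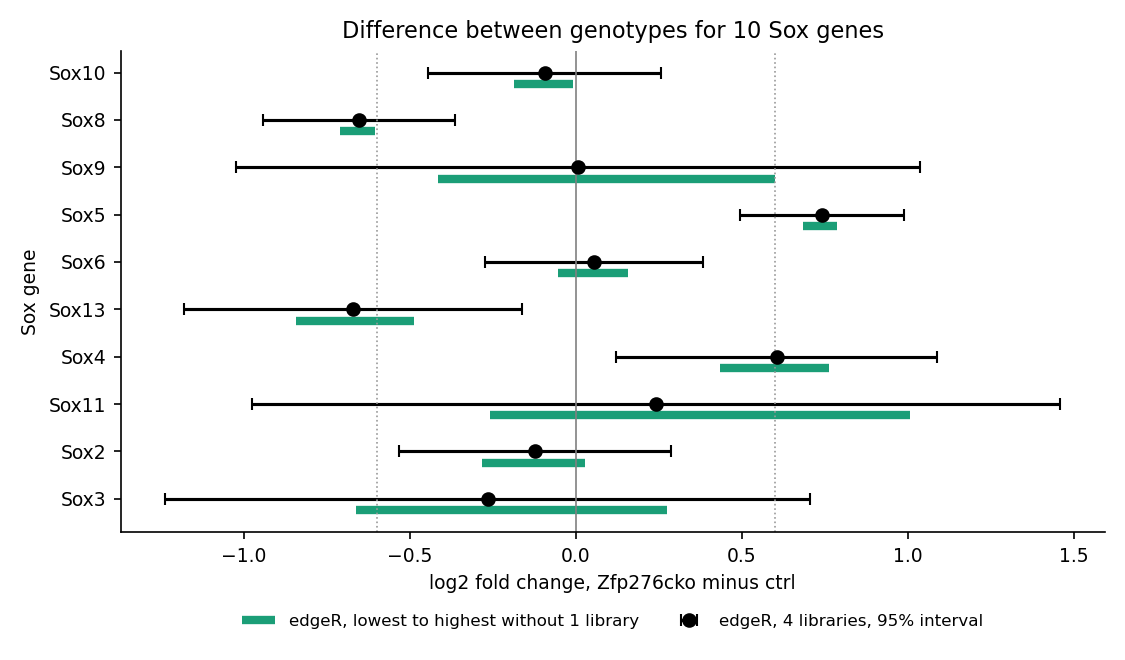
Log2 fold change of each Sox gene between Zfp276cko and ctrl with its 95% interval (black, edgeR on 4 libraries) and the range of the value when 1 library is left out (green bars), with dotted lines at the threshold of 0.6 in either direction. The bars of Sox8 and Sox5 are short and stay beyond the dotted lines, whereas those of Sox9, Sox11 and Sox3 reach both sides of 0.

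Levels of different genes were compared as RPKM, the reads per kilobase of exon scaled by the effective library size. In ctrl cells Sox10 had the highest level (270 ± 25.6 RPKM, SD, n = 2), followed by Sox2 (153 ± 11.3), Sox8 (141 ± 8.21), Sox4 (114 ± 14.1), Sox6 (29.1 ± 2.82), Sox3 (9.57 ± 4.31), Sox11 (7.22 ± 4.26), Sox13 (4.61 ± 0.835), Sox5 (4.24 ± 0.243) and Sox9 (3.51 ± 1.71). The libraries of Sox2 and Sox8 overlapped, and from Sox3 to Sox9 each gene overlapped with the next. In Zfp276cko cells Sox10 was again first (252 ± 7.90 RPKM), and Sox4 was the second gene (173 ± 27.5), ahead of Sox2 (141 ± 21.2), with which it overlapped, and of Sox8 (89.4 ± 2.02). Sox6 (30.2 ± 0.601), Sox11 (8.53 ± 1.06), Sox3 (7.96 ± 0.896), Sox5 (7.08 ± 0.0743), Sox9 (3.53 ± 0.228) and Sox13 (2.89 ± 0.0224) followed, and of these only Sox11 and Sox3 overlapped. The order below Sox6 depends on the length used. Per length of the longest annotated transcript, in place of all exons, Sox5 had 8.41 RPKM in ctrl, above Sox11 (7.22) and Sox13 (5.38), and 14.1 RPKM in Zfp276cko, above Sox11 (8.53) and Sox3 (7.96), while Sox6 (49.7 and 51.6 RPKM) stayed between Sox5 and the 4 most abundant genes. Sox4 thus stood below Sox2 and Sox8 in both ctrl libraries and above Sox8 in both Zfp276cko libraries. The summed level of the 10 genes was 687 and 783 RPKM in ctrl against 675 and 756 RPKM in Zfp276cko, of which Sox10 made up 36.6% and 36.7%, and 36.6% and 34.1%.

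Within the SoxE subgroup, the share of Sox10 in the summed RPKM was 64.7% and 65.6% in ctrl against 72.4% and 73.8% in Zfp276cko. The share of Sox8 was 34.7% and 33.4% in ctrl against 26.6% and 25.2% in Zfp276cko, and Sox9 stayed at or under 1.08% in every library. The genotypes did not overlap for Sox10 and Sox8, whose mean shares differed by 7.96 and −8.14 percentage points. Within the SoxD subgroup, Sox5 held 10.4% and 12.02% in ctrl against 17.7% and 17.6% in Zfp276cko. Sox13 held 10.3% and 14.2% in ctrl against 7.25% and 7.16% in Zfp276cko. The Sox13 difference of −5.02 percentage points was −3.06 without ctrl replicate 2 and −1.70 with raw counts in place of RPKM. The genotypes did not overlap for either gene, while the share of Sox6, the main SoxD gene with 73.8% to 79.3% of the subgroup, overlapped. For the shares of Sox10, Sox8, Sox5 and Sox13 the exact permutation test over samples (two-sided, 2 against 2 libraries) gave p = 0.333, which is the smallest p that this design allows. For the shares of Sox9, Sox6, Sox4, Sox11, Sox2 and Sox3 this exact permutation test gave p = 1.0. Sox4 made up 92.4% to 96.1% of the summed RPKM of Sox4 and Sox11. Sox2 made up 92.7% to 95.7% of that of Sox2 and Sox3. These sums leave out Sox12 and Sox1, which belong to the same SoxC and SoxB1 subgroups.

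**Figure D3:**
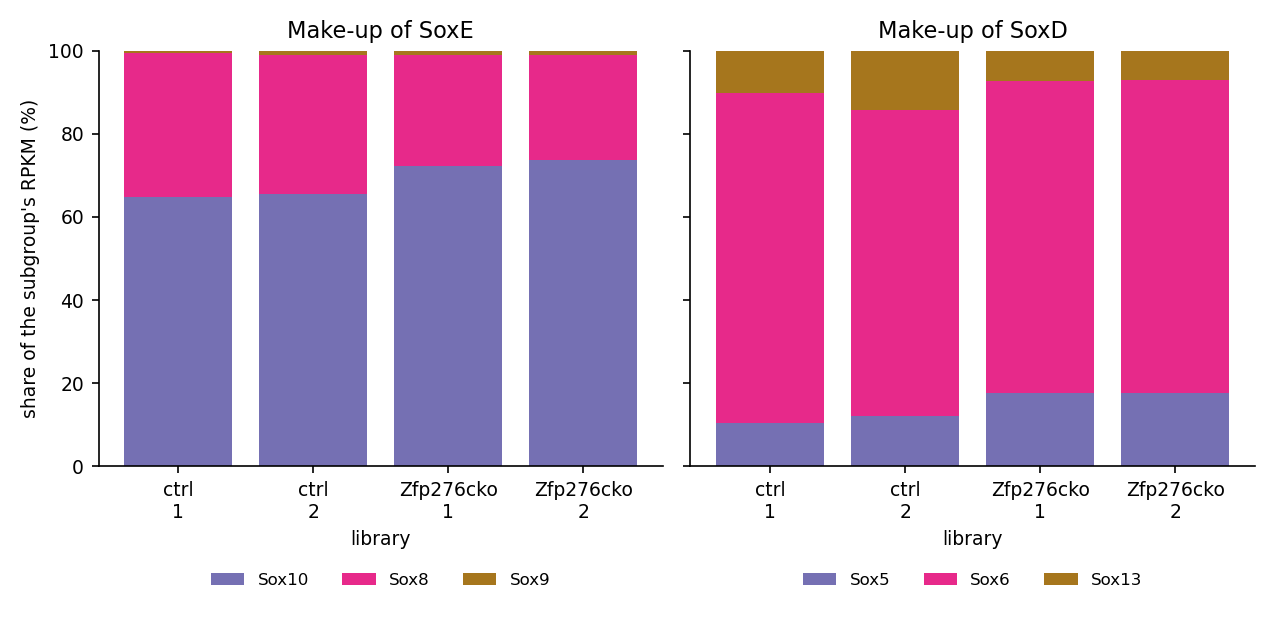
Share (%) of each gene in the summed RPKM of the SoxE (left) and SoxD (right) subgroups, with 1 stacked bar for each library. Sox10 takes 64.7% and 65.6% of SoxE in ctrl and 72.4% and 73.8% in Zfp276cko, and Sox5 takes a larger part of SoxD in both Zfp276cko libraries (17.7% and 17.6%) than in the ctrl libraries (10.4% and 12.02%).

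Of 10 further Sox genes, 4 passed the filter on low counts, and the genotypes overlapped for each of them. Sox12, the third SoxC gene, had normalized counts of 1542 and 1853 in ctrl and of 1599 and 1648 in Zfp276cko cells (log2 fold change −0.06, standard error 0.12). Sox21, a SoxB2 gene that counteracts SoxB1 proteins, had normalized counts of 1203 and 1965 in ctrl and of 1298 and 1452 in Zfp276cko cells (log2 fold change −0.20, standard error 0.26). Sox1, the third SoxB1 gene, had 61.7 and 568 in ctrl against 253 and 306 in Zfp276cko, and Sox7, known from vessels, had 5.94 and 39.4 in ctrl against 44.3 and 36.9 in Zfp276cko. Each of the 4 tested genes was lowest in ctrl replicate 1. Sox14, Sox17 and Sry had no counts in any library, and Sox15, Sox18 and Sox30 stayed at or below a normalized count of 6.01.

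Genes that Sox10 is known to activate during OL differentiation had lower values in Zfp276cko cells, while Sox10 itself overlapped between the genotypes. The list of 8 genes included Mbp and Mag (myelin proteins), Myrf (the transcription factor that acts with Sox10 on myelin genes), Gjb1 (a connexin), Aatk (host gene of a miRNA of OL differentiation) and the deleted gene Zfp276. For all 8, the deleted gene included, the Zfp276cko libraries lay below the ctrl libraries, against 23.7% of all tested genes, and the median of the list was −0.87 (log2 fold change). By edgeR 0 of the 8 were called, by the unadjusted p 5 were called lower (3.02% of all tested genes), and by DESeq2 5 were called lower (2.27%), among them Mbp, Mag, Myrf and Zfp276. Myrf had normalized counts of 10348 and 13968 in ctrl against 6691 and 6572 in Zfp276cko (log2 fold change −0.87, standard error 0.18, edgeR adjusted p = 0.176). Mag had 11060 and 18911 in ctrl against 8380 and 8071 in Zfp276cko (log2 fold change −0.87, standard error 0.29, edgeR adjusted p = 0.290), and its ctrl libraries were further apart than ctrl replicate 1 and the Zfp276cko libraries. With 1 library left out, the log2 fold change of Mag ranged from −1.20 to −0.44.

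Targets of Sox proteins in the OPC stage did not share a direction. The list held Wnt7a and Tgfb2 (signals), Id2 and Id4 (inhibitors of differentiation factors), and Cspg4 and Pdgfra (OPC surface proteins). Its median log2 fold change was −0.04, and 0 of the 6 genes were called by edgeR. Id2 had normalized counts of 3227 and 3125 in ctrl and of 4570 and 5211 in Zfp276cko cells, with no overlap between the genotypes (log2 fold change 0.62, standard error 0.11, edgeR adjusted p = 0.153), and was the 1 gene called higher by the unadjusted p and by DESeq2, against 5.11% and 3.02% of all genes tested. Cspg4 had 2809 and 3918 in ctrl against 2300 and 2177 in Zfp276cko, below both ctrl libraries (log2 fold change −0.59, standard error 0.19, edgeR adjusted p = 0.277). With 1 library left out, the Cspg4 value ranged from −0.81 to −0.34. Wnt7a, Id4, Tgfb2 and Pdgfra overlapped between the genotypes, so that 1 of 6 lay lower and 1 higher, against 23.7% and 26.8% of all tested genes.

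Of 14 factors known to act with or on Sox proteins, 0 were called by edgeR, and 2 were called lower by the unadjusted p (3.02% of all tested genes) and by DESeq2 (2.27%). These were Olig1 and Olig2, the basic helix-loop-helix factors of the oligodendroglial lineage. Olig1 had normalized counts of 31743 and 28857 in ctrl and of 16810 and 16487 in Zfp276cko cells (log2 fold change −0.86, standard error 0.12, edgeR adjusted p = 0.123). Olig2 had 13537 and 12402 in ctrl against 8692 and 8392 in Zfp276cko (log2 fold change −0.60, standard error 0.11, edgeR adjusted p = 0.162). The genotypes separated without a call for Zeb2 and Chd7 in the lower and for Nfatc2, Ctbp2 and Pou3f2 in the higher direction, with log2 fold changes from −0.20 to 0.33. These are 4 of 14 lower and 3 of 14 higher with Olig1 and Olig2, near the 23.7% and 26.8% of all tested genes. The other 7 factors, among them Nkx2-2 and Zfp24, overlapped, and the median of the list was −0.09.

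**Figure D4:**
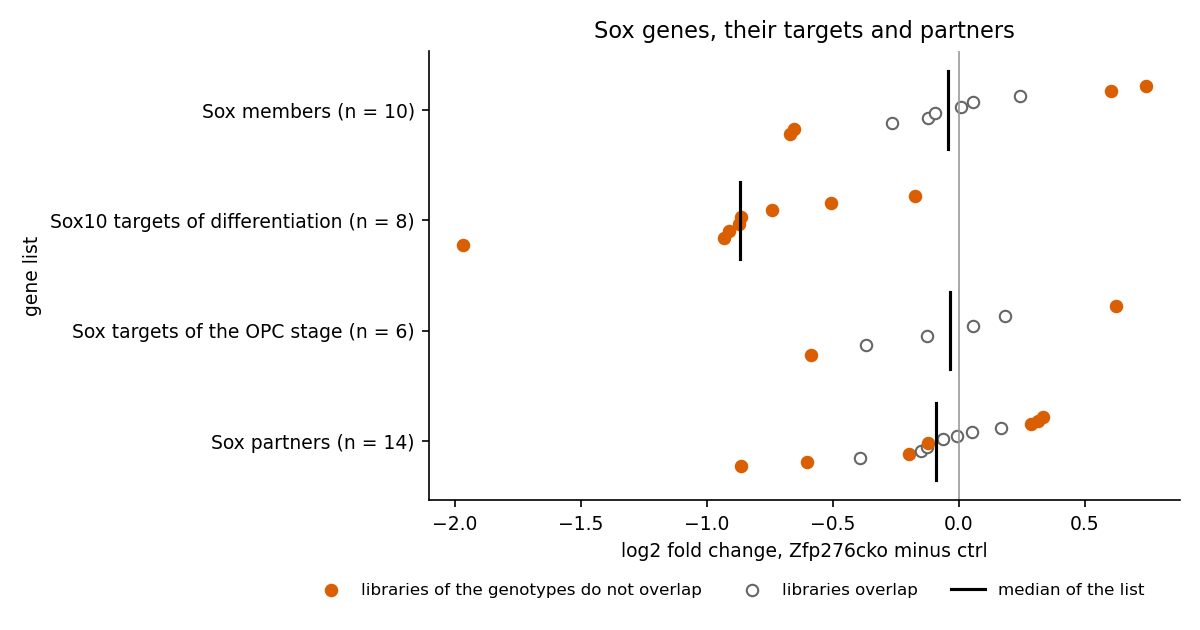
Log2 fold change between Zfp276cko and ctrl of each tested gene in 4 lists, with filled points for genes whose genotypes do not overlap, open points for genes that overlap, and a black line at the median of each list. The Sox genes lie on both sides of 0 around a median of −0.04, and the 8 targets of OL differentiation lie below 0 with a median of −0.87.

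Markers of the other cells of the culture were taken along because several Sox genes are expressed outside the oligodendroglial lineage. OL markers were abundant in every library (summed normalized counts of 300145 and 408420 in ctrl and of 205564 and 210303 in Zfp276cko cells, with Mbp as the most abundant gene). Of these 9 markers, 8 lay lower in both Zfp276cko libraries, against 23.7% of all tested genes, and only Cldn11 overlapped. OPC markers summed to 210100 and 145214 in ctrl and to 110735 and 109036 in Zfp276cko cells, and 4 of 6 lay lower, against the same 23.7%. Much of this sum was Gpr17, the most abundant gene (113405 and 69766 in ctrl, 43296 and 41092 in Zfp276cko). Pdgfra (10049 and 15501 in ctrl, 11842 and 11561 in Zfp276cko) and Lhfpl3 overlapped between the genotypes. Between the genotypes, Sox8 and Sox13 were low and Sox5 and Sox4 high where OL markers were low. Between the ctrl libraries, replicate 1 had the lower OL marker sum and also the lower value of each of these 4 genes. The single OL markers were split there. Opalin (1504 against 215), Mog (1996 against 1794) and Cldn11 (17801 against 16000) were higher in ctrl replicate 1 than in replicate 2, and the other OL markers were lower. Between the ctrl libraries Sox5 and Sox4 thus ran with the sum and opposite to Opalin, Mog and Cldn11. Whether the cell stages of the cultures had a part in the values of the Sox genes was not tested.

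The 8 neuronal markers, led by Dcx, summed to 3349 and 12100 in ctrl and to 10514 and 11196 in Zfp276cko cells, so that ctrl replicate 1 was the lowest library. It was also the lowest for Sox9, Sox11, Sox3, Sox5 and Sox4, and for Sox1, Sox7, Sox12 and Sox21 of the further Sox genes. Counts of markers without overlap between the genotypes are read here against 23.7% of all tested genes lower and 26.8% higher in Zfp276cko. Of the neuronal markers, 7 passed the filter and 1 (Dcx) lay higher, a share below that of all genes, while Slc17a7 had a normalized count of at most 8.14. Astrocyte markers, led by Gfap, summed to 37504 and 28650 in ctrl and to 34550 and 32787 in Zfp276cko cells. The sum followed Gfap (17641 and 8463 in ctrl). Slc1a2 (4592 against 3023), Aldoc (7123 against 4496) and Fgfr3 (3093 against 954) were likewise higher in ctrl replicate 1 than in replicate 2. The other 4 of the 8 were lowest in ctrl replicate 1, as Sox9 was: Aqp4 (1838 against 3818 in ctrl replicate 2), Slc1a3 (2674 against 6747), Aldh1l1 and Gja1. These 4 were named after their values were seen, and the list as a whole did not share the direction of Sox9. Of the 8, 1 lay lower and 2 higher in Zfp276cko, neither share above that of all genes. Microglial markers, led by C1qa, summed to 31076 and 16006 in ctrl and to 19994 and 21358, and 2 of 8 (Cx3cr1 and Ptprc) lay higher, near the share of all genes. Fibroblast and vessel markers, led by Col1a2, summed to 5800 in ctrl replicate 1 and to 244, 358 and 331 in the other libraries, with Cldn5 at 0 in each, and 1 of the 7 tested (Pecam1) lay higher in Zfp276cko, below the share of all genes. Markers of neural progenitors, led by Fabp7, summed to 23374 and 29383 in ctrl and to 27582 and 26116, and 1 of 8 (Vim) lay higher, also below it. Markers of Schwann cells and the neural crest, which also express Sox10, summed to 216, 110, 137 and 140, with Ngfr as the most abundant gene, and 1 of the 3 tested (Prx) lay higher, near the share of all genes. The part of these cells in the values of the Sox genes was not tested.

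The genes around Sox10 were taken along because the Zfp276cko cells carry a transgene named for this gene. Of the genes annotated within 100 kb of Sox10, 8 were tested, and 5 of them had higher values in both Zfp276cko libraries than in either ctrl library, against 26.8% of all tested genes. Polr2f, a subunit of RNA polymerases 3134 bases from Sox10, had normalized counts of 877 and 875 in ctrl and of 1374 and 1638 in Zfp276cko cells (log2 fold change 0.78, standard error 0.12, edgeR adjusted p = 0.134). Micall1, a gene of endocytic recycling at 18008 bases, had 3060 and 2589 in ctrl against 4753 and 4698 in Zfp276cko (log2 fold change 0.74, standard error 0.12, edgeR adjusted p = 0.1385). DESeq2 called both of these higher, against 3.02% of the genes it tested. The other 3 were 1700088E04Rik at 13655 bases (log2 fold change 0.65), Eif3l at 60503 bases (0.40) and Pick1 at 63933 bases (0.30). Gm10863 at 801 bases (−0.03), Ankrd54 (−0.04) and Baiap2l2 (−0.56, with normalized counts of 3.56 to 93.4) overlapped. The extent of the transgene is not given in the sources used here, and transcripts of the locus and of any copy of it in the transgene cannot be told apart.

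**Figure D5:**
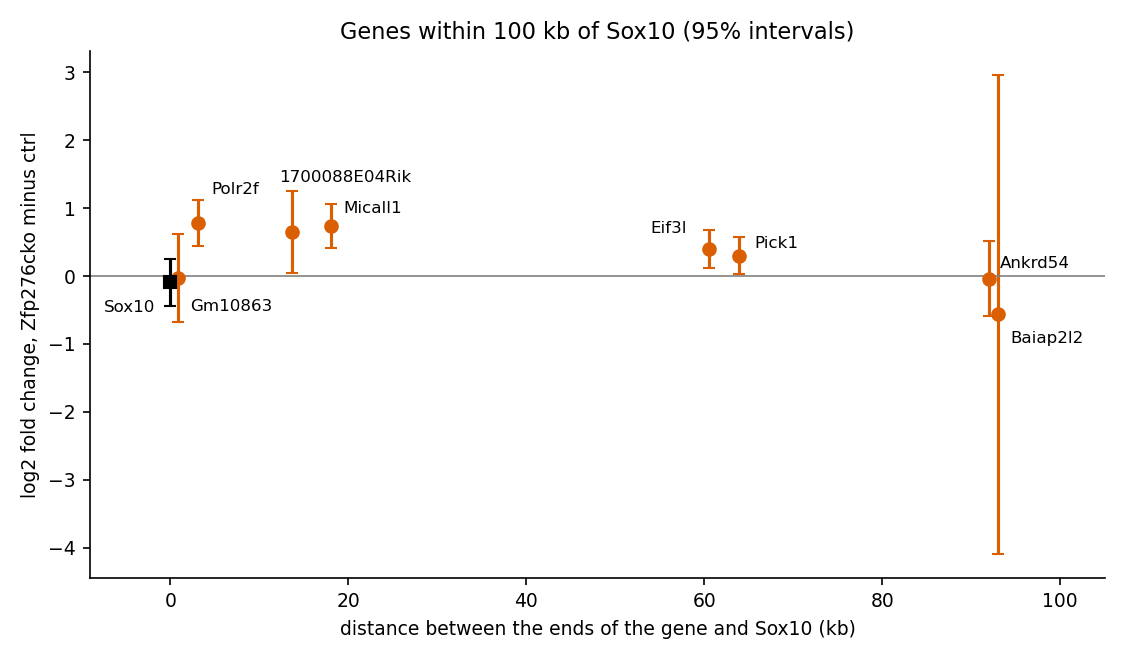
Log2 fold change between Zfp276cko and ctrl with its 95% interval for the 8 tested genes within 100 kb of Sox10 (orange) and for Sox10 (black), by the distance in kb between the gene and Sox10. Polr2f, 1700088E04Rik, Micall1, Eif3l and Pick1 lie between 0.30 and 0.78, and Sox10 lies at −0.09.

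The values of Sox10 over the 4 libraries had close matches among other genes. Among 5711 other genes whose normalized counts averaged 1000 or more, the 5 nearest in centred log2 CPM included Ttll4, Washc2, Crnkl1 and Nsd3, at distances of 0.0183 to 0.0199 on the log2 scale over 4 libraries. Ttll4, a tubulin-modifying enzyme, had normalized counts of 1416 and 1646 in ctrl and of 1412 and 1471 in Zfp276cko cells. With 4 libraries and this small a difference between the genotypes, such likeness is a description only.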

How the data were processed

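RNA-Seq reads came from 2 ctrl and 2 Zfp276cko preparations of 1° mouse OGCs (stranded mRNA libraries, single reads). The authors mapped them to mm10 with STAR (2.5.4a per the labels) and deposited raw counts (whole numbers) for each gene symbol. The study's methods name HTSeq for the counting and the submitters' processing notes featureCounts 1.5.1, and the strand setting is not given in the sources used here. The files hold 53353 symbols, with 220 entries under shared symbols treated as genes of their own. Gene positions and exon lengths were taken from the GENCODE annotation of GRCm38 (mm10).

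Genes were filtered with filterByExpr (15766 genes, 99.9% of the counts), normalized with TMM (factors 0.935 to 1.03) and tested with edgeR 4.0.16 in R 4.3.3, without covariates. Intervals cover 95%. DESeq2 1.42.0 was an alternative. Further alternatives were DESeq2's size factors, no filter, a replicate block, a minimum of 10 counts in every library, the unadjusted p, calls without thresholds on fold change and mean, scaling to Sox10, CPM without TMM, other gene lengths and leaving out each library. RPKM, shares and promoter motifs were computed with Python 3.11.15. The code was also run on simulated counts in which both genotypes had the same spread, unlike these data, so that this run does not test the calls made here. The precision is set by 2 libraries a genotype at 21068322 to 26599809 counted reads.

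The text names all 10 Sox genes, further Sox genes, up to 4 genes of each list by the size of the log2 fold change beside those counted in it, genes within 100 kb of Sox10, and the 5 genes nearest to its pattern. A few genes to which these rules apply are not reported here. The Sox genes and the gene lists were chosen with earlier results of these data known, and lists are described by counts and medians without a test of the list.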

Additional observations from a re-analysis of the deposited data

How the results depend on the processing

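The log2 fold changes of Sox8 and Sox13 stayed below 0 and those of Sox5 and Sox4 above 0 under all alternatives run, and 2 Sox genes separated the genotypes in each direction with DESeq2's size factors and relative to Sox10. Without TMM, 2 were lower and 3 higher, with Sox6 as the third. The calls depended on the method. DESeq2 called 338 genes lower and 449 higher, with 1 Sox gene each, and the unadjusted p called 476 and 806, with 2 Sox genes each. Without a filter on low counts, edgeR called 8 genes higher and 0 lower. Leaving out 1 library gave 0 to 1286 genes called lower and 0 to 1792 higher, with 0 to 3 Sox genes lower and 0 to 4 higher. The high values came from leaving out a ctrl library, where the lone ctrl library is assumed to vary like the Zfp276cko libraries. Without ctrl replicate 1, Sox8, Sox13 and Sox3 were called lower and Sox5 higher, and without ctrl replicate 2, Sox8 was called lower and Sox5, Sox9, Sox4 and Sox11 higher.

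Sox9 had a log2 fold change of −0.0065 with DESeq2's size factors and of −0.0072 in DESeq2, against 0.0063. Leaving out 1 library turned the sign for Sox9 (−0.42 to 0.60), Sox6 (−0.055 to 0.16), Sox11 (−0.26 to 1.01), Sox2 (−0.28 to 0.027) and Sox3 (−0.66 to 0.27). It also turned the difference between genotypes in the share of the subgroup's analysed genes for Sox9 (−0.054 to 0.428 percentage points), Sox6 (−4.19 to 1.35), Sox4 (−0.817 to 2.92), Sox11 (−2.92 to 0.817), Sox2 (−1.07 to 1.88) and Sox3 (−1.88 to 1.07). The cause was not tested. With raw counts in place of RPKM, the share difference moved from −5.02 to −1.70 percentage points for Sox13 and from −1.42 to −4.47 for Sox6.

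A replicate block left the calls of edgeR at 0 in both directions, with log2 fold changes of −0.65 for Sox8 and 0.74 for Sox5. The deviations of samples with the same replicate number had a correlation of 0.00637. Because the Zfp276cko libraries hardly differed from each other, this value cannot show whether the numbers pair the preparations.

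With 2 libraries a genotype, no Sox gene passed the adjusted threshold of edgeR, and genes with ctrl libraries 1.93-fold or more apart (Sox9, Sox11 and Sox3) have no resolved direction.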
